A study of Mus musculus with 6 samples.

Results

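Prostaglandins are short-lived lipid signals made from arachidonic acid. The genes described here are 10 that make, break down or sense them: the cyclooxygenases Ptgs1 and Ptgs2, the terminal synthases Ptges, Ptgis and Ptgds, the inactivating enzyme Hpgd, and the prostaglandin E2 receptors Ptger1, Ptger2, Ptger3 and Ptger4. They were chosen by name, and every probe whose gene name or RefSeq transcript gave one of them was taken. That gave 13 probes of 10 genes among 39429 probes, of which 27234 were matched to 20659 named genes. Ptges, Hpgd and Ptger3 had 2 probes each, and the other 7 genes had 1.

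The cells were primary osteoblasts from the calvaria (the skull cap) of newborn CD1 mice 2 to 5 days old, and mRNA was measured on 6 single-colour arrays. Undifferentiated osteoblasts (2 arrays) were harvested at confluence in MEM with fetal bovine serum. Differentiated osteoblasts (2 arrays) were kept for a further 30 days in differentiation medium, which contains ascorbic acid and β-glycerol phosphate. The third condition (2 arrays, called cabozantinib) had the same medium and time with 100 nM cabozantinib (XL184), an inhibitor of the receptor kinases MET and VEGFR2. The undifferentiated cells thus differ from both other conditions in culture time as well as in medium, and the labels do not say whether the 2 arrays of a condition came from separate preparations of cells, so p-values measure only the spread between arrays, which may be technical.

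In the pathway, phospholipases release arachidonic acid, a cyclooxygenase converts it to prostaglandin H2, and a terminal synthase turns that into prostaglandin E2, prostacyclin, prostaglandin D2 or thromboxane. Hpgd (hydroxyprostaglandin dehydrogenase) oxidises prostaglandin E2 to an inactive form. In bone, prostaglandin E2 made by osteoblasts through Ptgs2 is known to act back on them through Ptger2 and Ptger4, which raise cyclic AMP, whereas Ptger3 lowers it and Ptger1 acts through calcium.

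The results turned on Ptgs2, which fell, and on Ptgds, Hpgd and Ptger3, each higher after 30 days at 1 probe. The second Hpgd probe passed in no comparison and the second Ptger3 probe was too dim to test. The higher Ptger3 signal is a description only, for the reason given below. The sequences before the annotated starts of Ptgs2, Ptgds, Hpgd and Ptger3 are shown so that start regions of genes moving in opposite directions can be set side by side. RefSeq windows of build GRCm38.p6 were matched for 8 of the 10 genes; Ptgis and Ptger1 had no entry. Each line below gives the 250 bases before the start, on the gene's strand, in lower case with motif matches in capitals: Ptgs2 lies at chr1:150099781-150100030 (plus strand), Ptgds at chr2:25469750-25469999 (minus strand), Hpgd at chr8:56294302-56294551 (plus strand) and Ptger3 at chr3:157566626-157566875 (plus strand).
Ptgs2: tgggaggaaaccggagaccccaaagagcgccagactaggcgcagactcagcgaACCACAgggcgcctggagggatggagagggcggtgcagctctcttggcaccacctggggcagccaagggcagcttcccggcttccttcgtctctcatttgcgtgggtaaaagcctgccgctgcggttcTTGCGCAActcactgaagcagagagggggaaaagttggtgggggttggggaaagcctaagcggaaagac
Ptgds: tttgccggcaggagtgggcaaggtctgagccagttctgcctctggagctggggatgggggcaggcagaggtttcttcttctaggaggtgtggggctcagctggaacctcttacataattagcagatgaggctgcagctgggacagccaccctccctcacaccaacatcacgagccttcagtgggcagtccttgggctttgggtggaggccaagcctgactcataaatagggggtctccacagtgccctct
Hpgd: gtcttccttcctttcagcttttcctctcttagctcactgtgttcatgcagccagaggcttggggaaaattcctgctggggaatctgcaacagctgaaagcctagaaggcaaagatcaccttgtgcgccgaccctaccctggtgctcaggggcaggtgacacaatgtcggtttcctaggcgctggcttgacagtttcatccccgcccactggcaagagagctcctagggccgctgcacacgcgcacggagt
Ptger3: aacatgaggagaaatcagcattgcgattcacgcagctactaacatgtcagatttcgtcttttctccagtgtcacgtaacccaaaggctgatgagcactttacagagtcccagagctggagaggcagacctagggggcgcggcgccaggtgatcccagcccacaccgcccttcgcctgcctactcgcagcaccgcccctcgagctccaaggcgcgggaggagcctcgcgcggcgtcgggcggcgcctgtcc
The first 30 bases from the start of Ptgs2 and of Hpgd also held matches.
Ptgs2 from the start: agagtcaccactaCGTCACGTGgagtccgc
Hpgd from the start: gggcTATAAAagctgctgcggcgtccagac
In all, 5 motifs were searched on both strands of the 300 bases from 250 before to 50 after each start. The TATA box, at which many promoters assemble the polymerase, was searched as TATAAA, and the core of a cyclic AMP response element was searched as TGACG. The E-box bound by helix-loop-helix factors was searched as CACGTG, and the site of RUNX factors, the family of the osteoblast regulator Runx2, was searched as TGTGGT. The palindrome of C/EBP factors was searched as TTGCGCAA. Ptgs2 held all but the TATA box. The capitals in its upstream line are the RUNX site, read on the opposite strand, 197 bases before the start, and the C/EBP palindrome 69 bases before it, and the capitals in its downstream line are the cyclic AMP core (as CGTCA, on the opposite strand, from base 14 after the start) overlapping the E-box, which starts at base 17. Hpgd held a TATA box 5 bases after its start, and no match was found in the windows of Ptgds, Ptger3, Ptgs1, Ptges, Ptger2 or Ptger4. Of all 32851 windows, 13.6% held the TATA box, 20.8% the cyclic AMP site, 7.15% the E-box, 16.8% the RUNX site and 0.183% the C/EBP palindrome. These matches describe letters only and were not tested for binding.

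Signals are given as log2 of the processed intensity minus the 75th percentile of the same array, so that 0 is the 75th percentile, and a probe's level was not set against that of another probe. The 75th percentile lay between 625 and 1770 intensity units, 58.8% to 72.9% of spots were well above background, and no spot was saturated. The 4 arrays without the drug shared 1 scan time and the 2 cabozantinib arrays another, so scan and cabozantinib cannot be told apart. The median probe moved by 0.08 (log2) in differentiated against undifferentiated cells, by -0.27 in cabozantinib against differentiated cells and by -0.40 in cabozantinib against undifferentiated cells. Under quantile normalization those medians were 0.07, -0.06 and -0.14. The first and the last comparison share the undifferentiated arrays, and the last 2 share the cabozantinib arrays.

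A signal well above background was seen on all 6 arrays for 9 of the 13 probes. The second Hpgd probe was so on 5, the brighter Ptger3 probe on 4, the second Ptger3 probe on 1 and the Ptger4 probe on 0. The filter required 2 such arrays, which left 11 probes of 9 genes to be tested. The brighter Ptger3 probe passed only through the 2 conditions in which it was high, so that it had to differ from the undifferentiated arrays, and its place in the counts below is no evidence of a rise.

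In differentiated against undifferentiated cells, 4 of the 11 tested probes rose and 2 fell at an adjusted p under 0.05 (limma), where 4.96% of all 27196 tested probes rose and 5.07% fell. The 11 probes had a median log2 change of 0.64, against 0.08 for all probes. Those that rose were the probes of Ptgds, Ptgis, the brighter probe of Hpgd and Ptger3, and those that fell were Ptgs2 and the dimmer probe of Ptges. In cabozantinib against undifferentiated cells 4 rose and 3 fell, the additional one being Ptgs1, where 4.46% of all probes rose and 9.15% fell; the median of the 11 was 1.57 against -0.40. In cabozantinib against differentiated cells none of the 11 passed at an adjusted p under 0.05 in limma, 2 had an unadjusted p under 0.05, and 0.136% of all probes rose while 2.37% fell. The median of the 11 was 0.12 against -0.27. The members, like the gene lists below, were chosen with earlier results of these data known. Their counts and medians beside those of all probes or genes are therefore a description only.

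**Figure D1:**
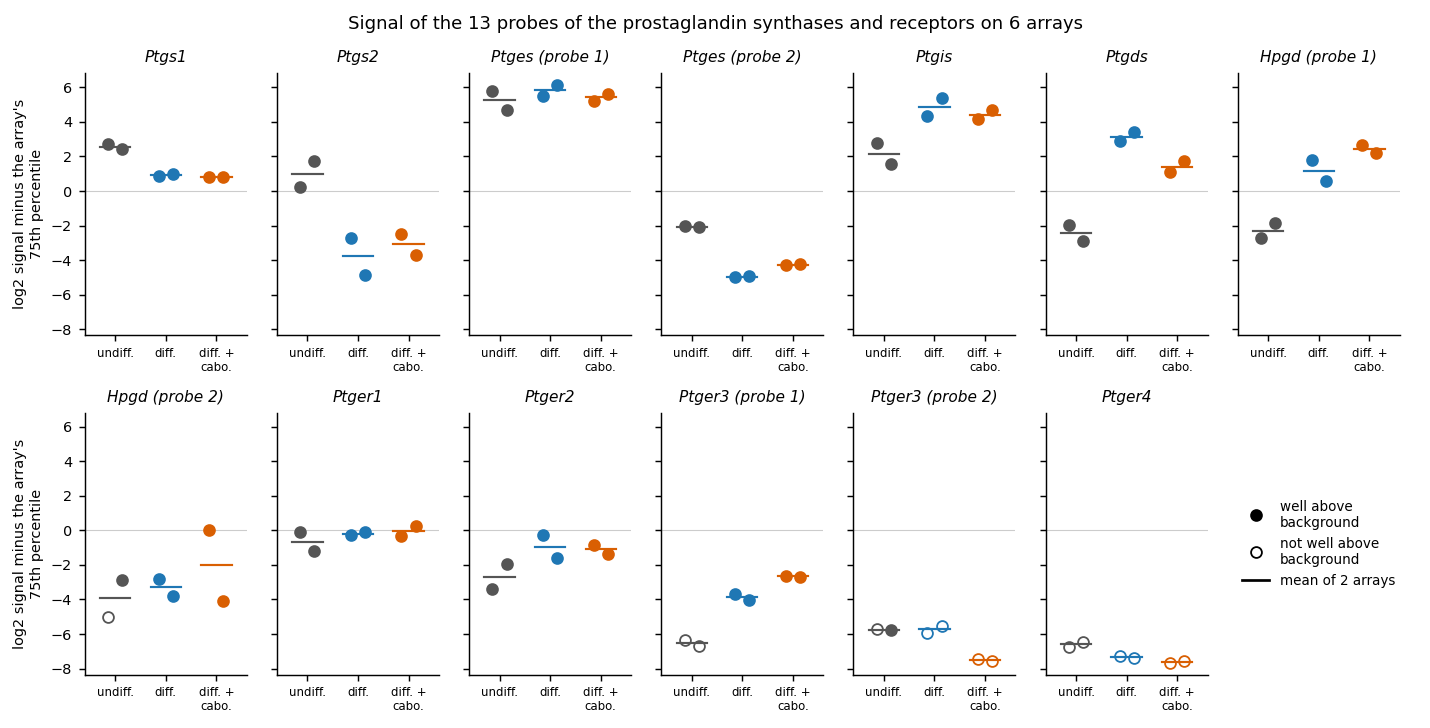
Each panel is 1 probe, the y axis is log2 signal minus the array's 75th percentile, each point is 1 of the 2 arrays of a condition (filled where well above background, open where not) and the line is their mean. Ptgs2 sat between 0.21 and 1.73 on the undifferentiated arrays and at or below -2.48 on the other 4, Ptgds and the first Hpgd probe went the opposite way, and Ptger4 was open on all 6.

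Ptgs1, the cyclooxygenase that most tissues keep at a steady level, read 2.72 and 2.41 in undifferentiated cells, 0.85 and 0.99 in differentiated cells, and 0.82 and 0.79 with cabozantinib. Both undifferentiated arrays were above the other 4, and the differentiated and cabozantinib arrays lay close together. The log2 change was -1.64 (SE 0.49) in differentiated cells, with an adjusted p of 0.0647 in limma when the replicate number was a block and 0.0176 when it was not. In cabozantinib against undifferentiated cells it was -1.75 (SE 0.49), a 3.37-fold lower signal with an adjusted p of 0.0429. That call was lost when either differentiated array was left out (0.0657) or either cabozantinib array (0.399 without array 1 and 0.384 without array 2). Between cabozantinib and differentiated cells the difference was -0.11, with a 95% confidence interval from -1.20 to 0.98.

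Ptgs2, the cyclooxygenase induced by cytokines, growth factors and mechanical load, was measured by 10 spots of 1 probe on every array. It read 0.21 and 1.73 in undifferentiated cells, -2.72 and -4.85 in differentiated cells, and -2.48 and -3.69 with cabozantinib. Both undifferentiated arrays were far above all 4 others, and the differentiated and cabozantinib arrays overlapped. In intensity units this was 721 and 5880, then 166 and 22.6, then 228 and 74.3. The spots of an array agreed within an SD of 0.05 to 0.12 (log2), whereas the 2 arrays of a condition differed by 1.52, 2.12 and 1.21, so that the spots of an array were far closer than the arrays.

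**Figure D2:**
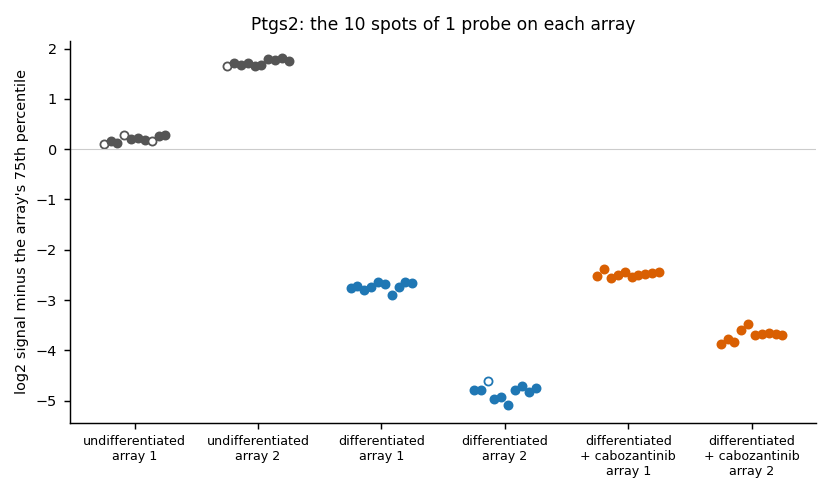
The y axis is log2 signal minus the array's 75th percentile for each of the 10 Ptgs2 spots on each of the 6 arrays, with open points for spots the scanner software marked as outliers and left out (3 and 1 on undifferentiated arrays 1 and 2, 1 on differentiated array 2). The spots of an array cluster closely, while arrays of a condition stand 1.21 to 2.12 apart.

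Ptgs2 fell 27-fold in differentiated against undifferentiated cells (log2 change -4.75, SE 0.78, n = 2 arrays each, adjusted p = 0.00456 in limma across all probes), and 0.335% of tested probes had a lower change. The change was -6.35 and -3.16 without undifferentiated array 1 or 2, and -5.89 and -3.61 without differentiated array 1 or 2. With normexp background correction it was -3.58 (adjusted p = 0.0122 in limma). In the methods' t-test the unadjusted p was 0.233 paired and 0.0679 unpaired, and neither passed after adjustment. The Ptgs2 signal was 16.6-fold lower in cabozantinib than in undifferentiated cells (log2 change -4.06, SE 0.78, adjusted p = 0.0123), or -5.65 and -2.46 without undifferentiated array 1 or 2. Under quantile normalization the change in this last comparison was -3.87 with an adjusted p of 0.0999. The difference between cabozantinib and differentiated cells was 0.70, with a 95% interval from -1.04 to 2.43 and an adjusted p of 0.724, and its sign turned (-0.44) when differentiated array 2, the array with the lowest Ptgs2 signal, was left out. In cultures measured in bulk, fewer cells that express a gene and less of its RNA per cell cannot be told apart, here and in all results that follow.

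Ptges encodes the inducible microsomal synthase of prostaglandin E2, and its 2 probes disagreed. The brighter probe read 5.77 and 4.70 in undifferentiated cells, 5.51 and 6.12 in differentiated cells, and 5.20 and 5.62 with cabozantinib. All 3 conditions overlapped. Its raw intensity ran from 34100 to 49800, a 1.46-fold range over the 6 arrays while their 75th percentiles spanned a 2.84-fold range, so its scaled level followed the scale of the array. The change in differentiated cells was 0.58 (SE 0.56, adjusted p = 0.713), and no comparison passed.

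The dimmer Ptges probe read -2.01 and -2.10 in undifferentiated cells, -4.98 and -4.91 in differentiated cells, and -4.28 and -4.22 with cabozantinib. The 2 arrays of each condition lay within 0.09 of each other, and the 3 conditions did not overlap. The signal was 7.43-fold lower in differentiated than in undifferentiated cells (log2 change -2.89, SE 0.48, adjusted p = 0.00496) and 4.58-fold lower in cabozantinib cells (log2 change -2.20, SE 0.48, adjusted p = 0.0198). Without cabozantinib array 1 or array 2 the second of these had an adjusted p of 0.219 or 0.227, and under quantile normalization 0.0606. Between the cabozantinib and differentiated cells the difference was 0.70 (95% interval -0.38 to 1.77, adjusted p = 0.468). With normexp background correction the change in differentiated cells was -1.53 with an adjusted p of 0.273, and averaging both probes gave -1.16 for the gene with an adjusted p of 0.211.

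Ptgis, the prostacyclin synthase, read 2.78 and 1.55 in undifferentiated cells, 4.32 and 5.40 in differentiated cells, and 4.14 and 4.69 with cabozantinib. The 4 arrays kept in differentiation medium were above both undifferentiated arrays and overlapped each other. The increase was 6.49-fold in differentiated cells (log2 change 2.70, SE 0.62, adjusted p = 0.022) and 4.75-fold in cabozantinib cells (log2 change 2.25, SE 0.62, adjusted p = 0.042). Neither call held with every array left out in turn: the first had an adjusted p of 0.0675 without undifferentiated array 2 and 0.254 without differentiated array 2, and the second had 0.0582 without undifferentiated array 2, 0.112 without cabozantinib array 1 and 0.329 without cabozantinib array 2. Quantile normalization also ended the second call (adjusted p = 0.0761). Without undifferentiated array 1 or 2 the changes were 3.72 or 1.68 and 3.27 or 1.23, and without differentiated array 1 or 2 the first was 3.41 or 1.99. Cabozantinib against differentiated cells gave -0.45 (95% interval -1.83 to 0.93).

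Ptgds encodes lipocalin-type prostaglandin D synthase, a secreted protein that also carries small lipids. It read -1.98 and -2.87 in undifferentiated cells, 2.88 and 3.4 in differentiated cells, and 1.07 and 1.76 with cabozantinib. The 3 conditions did not overlap, and the cabozantinib arrays lay between the other 2 conditions. Its increase in differentiated cells was 47.4-fold (log2 change 5.57, SE 0.55, adjusted p = 0.000501), and 0.224% of tested probes had a higher change. In cabozantinib against undifferentiated cells the increase was 14.3-fold (log2 change 3.84, SE 0.55, adjusted p = 0.0037). Without undifferentiated array 1 or 2 the first of these changes was 6.31 or 4.82 and the second 4.59 or 3.09.

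Between cabozantinib and differentiated cells the Ptgds signal was 3.31-fold lower with the drug (log2 change -1.73, SE 0.55, 95% interval -2.97 to -0.48), or -1.45 relative to the median probe, and 9.68% of probes had a lower change. The unadjusted p was 0.0115 and the adjusted p 0.101, and without the replicate block the adjusted p was 0.0501. With only the 4 arrays of this comparison, which is also the fit that leaves out either undifferentiated array, the adjusted p was 0.0296. Leaving out 1 of those 4 arrays gave 0.231 and 0.804 (differentiated arrays 1 and 2) and 0.978 and 0.301 (cabozantinib arrays 1 and 2), quantile normalization gave 0.197 and normexp background correction gave 1.

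Hpgd, which starts the breakdown of prostaglandin E2, had 2 probes of unlike behaviour. The brighter probe read -2.72 and -1.86 in undifferentiated cells, 1.79 and 0.57 in differentiated cells, and 2.66 and 2.22 with cabozantinib. The 3 conditions did not overlap, and cabozantinib was the highest. The increase over undifferentiated cells was 11.1-fold in differentiated cells (log2 change 3.47, SE 0.59, adjusted p = 0.00538) and 26.5-fold in cabozantinib cells (log2 change 4.73, SE 0.59, adjusted p = 0.00197). The first change was 2.63 or 4.31 without undifferentiated array 1 or 2 and 2.75 or 4.18 without differentiated array 1 or 2, and the second was 3.89 or 5.57 without undifferentiated array 1 or 2. Between cabozantinib and differentiated cells the change was 1.26, or 1.54 relative to the median probe, with a 95% interval from -0.05 to 2.57 and an adjusted p of 0.235.

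The dimmer Hpgd probe read -5.02 and -2.85 in undifferentiated cells (the first not well above background), -2.80 and -3.79 in differentiated cells, and 0.03 and -4.08 with cabozantinib. Cabozantinib array 1 stood above all 5 others and cabozantinib array 2 within their range. The 2 cabozantinib arrays thus differed by 4.10 (log2) at this probe but by 0.44 at the brighter one. No comparison passed in the main fit (adjusted p = 0.897, 0.611 and 0.275 in limma). Of 16 alternatives for cabozantinib against undifferentiated cells, 4 gained a call at this probe and 2 changed its sign. The change in cabozantinib against differentiated cells was 3.62 without cabozantinib array 2, with an adjusted p of 0.0405, and -1.08 without cabozantinib array 1. Averaged over both probes, the change of Hpgd in differentiated cells was 2.05 with an adjusted p of 0.15.

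**Figure D3:**
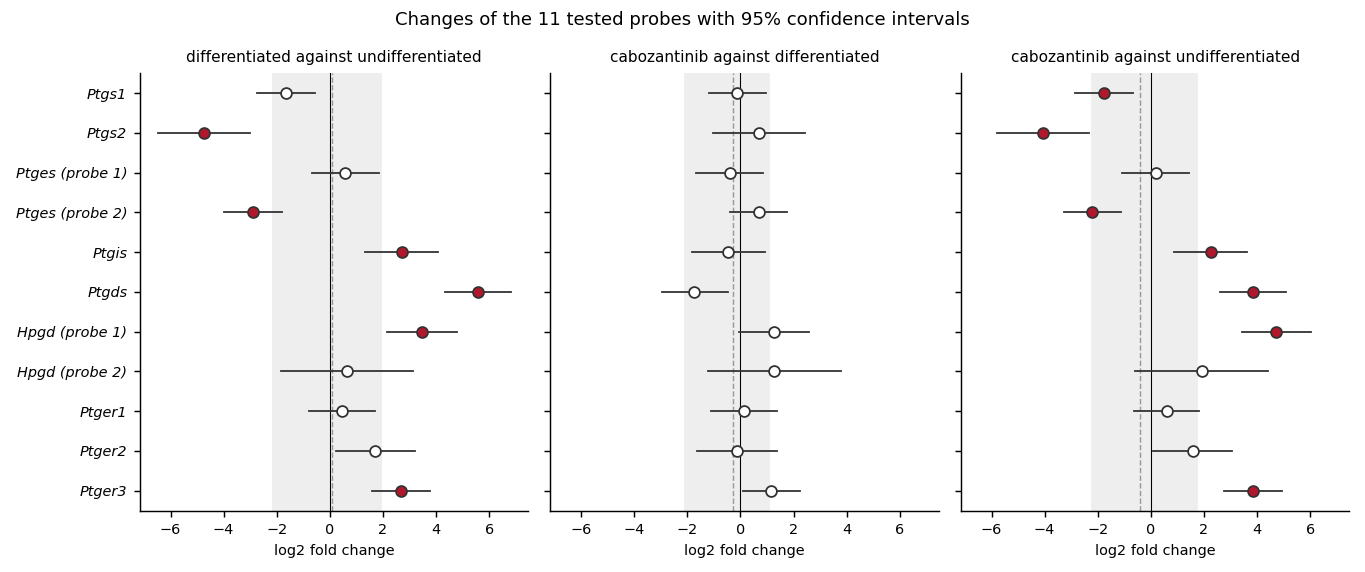
The x axis is the log2 fold change of each of the 11 tested probes in the 3 comparisons, with 95% confidence intervals from limma; red points had an adjusted p under 0.05, the grey band is the 5th to 95th percentile of all 27196 probes and the dashed line their median. In the 2 comparisons against undifferentiated cells 6 and 7 points are red, and in cabozantinib against differentiated cells none is.

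Among the receptors of prostaglandin E2, Ptger1 read -0.09 and -1.21 in undifferentiated cells, -0.26 and -0.11 in differentiated cells, and -0.34 and 0.22 with cabozantinib. The conditions overlapped throughout. Its changes were 0.47 in differentiated and 0.59 in cabozantinib cells against undifferentiated ones, and 0.12 between the last 2 (95% interval -1.12 to 1.37), with adjusted p-values of 0.796, 0.521 and 0.958.

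Ptger2, one of the receptors that raise cyclic AMP, read -3.42 and -1.94 in undifferentiated cells, -0.30 and -1.63 in differentiated cells, and -0.85 and -1.36 with cabozantinib. Both undifferentiated arrays were below the other 4 and the differentiated and cabozantinib arrays overlapped. The log2 changes of 1.71 (SE 0.67, adjusted p = 0.165) and 1.57 (SE 0.67, adjusted p = 0.139) against undifferentiated cells did not pass. Cabozantinib against differentiated cells gave -0.14 (95% interval -1.64 to 1.36).

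Ptger3, the receptor that lowers cyclic AMP, was not well above background on either undifferentiated array at its brighter probe, where it read -6.37 and -6.66. It read -3.67 and -4.01 in differentiated cells, and -2.66 and -2.68 with cabozantinib, all 4 well above background. The 3 conditions did not overlap, and cabozantinib was the highest. Because the undifferentiated level is only bounded, the differentiated signal was at least 4.13-fold higher (adjusted p = 0.00744) and the cabozantinib signal at least 9.3-fold higher (adjusted p = 0.00211), each bound taking the lowest signal well above background on the undifferentiated arrays or the probe's own, whichever was higher. Since the filter kept this probe through its high conditions, these p-values are given as a description, and with no filter on dim probes they were 0.026 and 0.00976. The first had an adjusted p of 0.0629 without differentiated array 1, and with normexp background correction neither passed (adjusted p = 1 and 0.604).

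Ptger3 was measured on both sides when cabozantinib was set against differentiated cells. The log2 change was 1.17 (SE 0.48, 95% interval 0.09 to 2.25), or 1.45 relative to the median probe, a 2.25-fold higher signal that was exceeded by 4.17% of probes. The unadjusted p was 0.0368 and the adjusted p 0.18. Leaving out the replicate block gave an adjusted p of 0.0646, and a fit of only the 4 arrays of the comparison, which is also the fit without either undifferentiated array, gave 0.0404. Leaving out 1 of those 4 arrays gave 0.519 and 0.962 (differentiated arrays 1 and 2) and 0.967 and 0.795 (cabozantinib arrays 1 and 2), quantile normalization gave 0.184, and with normexp the change was 0.56 with an adjusted p of 1. The second Ptger3 probe was well above background on undifferentiated array 2 alone and was not tested. It read -5.71 and -5.79 in undifferentiated cells, -5.92 and -5.53 in differentiated cells, and -7.44 and -7.57 with cabozantinib. These readings, near background, did not repeat the order of the brighter probe.

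Ptger4, the other cyclic AMP-raising receptor, was not well above background on any array. Its probe read from -7.65 to -6.44, or 3.93 to 20.4 intensity units, and gave no fold in any comparison. A low signal at 1 probe is a bound on the signal of that probe and says nothing of the protein.

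Differences between 2 probes of the same array do not depend on how arrays were scaled, and only their changes, not their zero, can be read. The Hpgd signal (brighter probe) minus the Ptgs2 signal was -2.92 and -3.59 in undifferentiated cells, 4.51 and 5.41 in differentiated cells, and 5.14 and 5.91 with cabozantinib. The 4 arrays after 30 days were all above both undifferentiated arrays, and the mean changed by 8.22 (log2) in differentiated cells. The replicate arrays were closer in this difference (0.67, 0.90 and 0.77 apart) than in Ptgs2 alone (1.52, 2.12 and 1.21). In Hpgd alone they were 0.86, 1.22 and 0.44 apart, so the cabozantinib arrays were closer there. In Ptgds minus Ptgs2 they were 2.4, 2.64 and 1.9 apart, wider than in Ptgs2 alone.

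Ptgds minus Ptgs2 was -2.19 and -4.59 in undifferentiated cells, 5.6 and 8.25 in differentiated cells, and 3.55 and 5.46 with cabozantinib, with the last 2 conditions almost meeting. Ptgds minus Hpgd was 0.73 and -1, then 1.09 and 2.83, then -1.59 and -0.45. The cabozantinib arrays were below the differentiated arrays in that difference, with a mean change of -2.99, and overlapped the undifferentiated ones. Hpgd minus Ptgs1 was -5.44 and -4.27, then 0.93 and -0.42, then 1.83 and 1.42. These differences were read from values already described and were not tested.

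**Figure D4:**
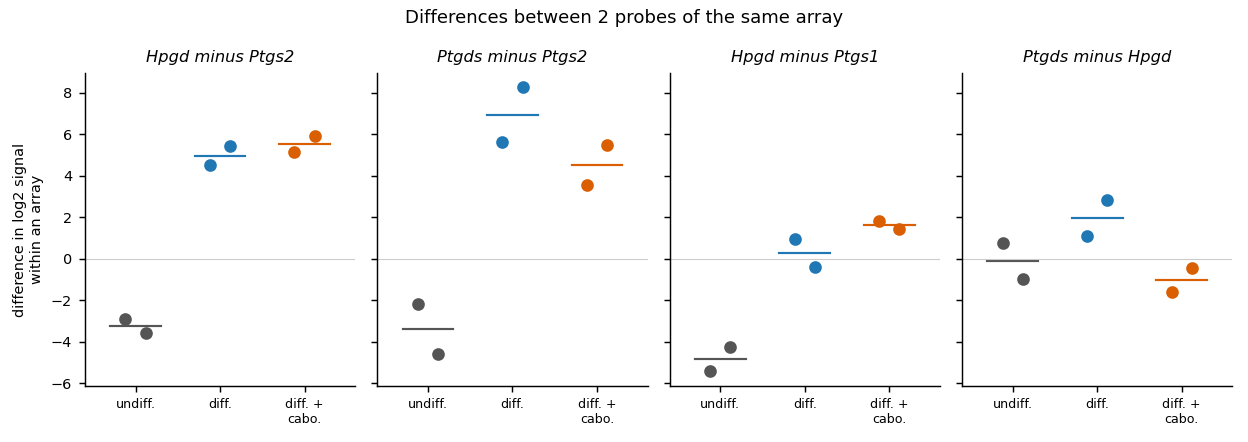
The y axis is the difference in log2 signal between 2 probes of the same array for 4 pairs of genes, each point is 1 array and each line the mean of a condition's 2 arrays. Hpgd minus Ptgs2 lies between -3.59 and -2.92 on the undifferentiated arrays and between 4.51 and 5.91 on the other 4.

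A list of 39 further genes of the eicosanoid pathways was read at the brightest probe of each gene, and 33 of them were tested. In differentiated against undifferentiated cells 6 of the 33 rose and 2 fell, where 5.26% of all 23058 genes rose and 4.46% fell, and the median change was 0.20 against 0.11 for all genes. In cabozantinib against undifferentiated cells 6 rose and 3 fell, where 4.67% and 8.68% of all genes did, with a median of -0.15 against -0.35. In cabozantinib against differentiated cells 0 of the 33 passed in limma, where 0.117% of all genes rose and 2.36% fell, and the median was -0.23 against -0.29. Without the replicate block the falls numbered 3, 7 and 1 in the 3 comparisons, where 6.25%, 17.4% and 12% of all genes fell.

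Phospholipases feed the pathway. Pla2g5, a secreted phospholipase, rose by 2.21 (log2, adjusted p = 0.0494) in differentiated cells, and by 2.76 (adjusted p = 0.0204) in cabozantinib cells. Pla2g12a, another secreted form, cleared background in undifferentiated but not in differentiated cells on either array, so that it was at least 9.04-fold lower there (adjusted p = 0.00334). The filter kept Pla2g12a only because it was high in undifferentiated cells, so its calls and its place in the counts are a description. In cabozantinib cells, where 1 of 2 arrays cleared background, its change was -2.67 (adjusted p = 0.0122). Pla2g6, a calcium-independent phospholipase, was lower in cabozantinib than in undifferentiated cells, with a change of -1.85 (adjusted p = 0.0485). Pla2g4a, the cytosolic phospholipase that supplies the cyclooxygenases, changed by -0.34 in differentiated cells (adjusted p = 0.866) and by a further -0.58 with the drug (adjusted p = 0.618).

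Of the other synthases, Tbxas1, which makes thromboxane, read -2.89 and -2.83 in undifferentiated cells, 0.50 and 1.01 in differentiated cells, and 0.60 and 0.58 with cabozantinib. It rose by 3.62 (adjusted p = 0.00203) and by 3.45 (adjusted p = 0.00342) against undifferentiated cells. Ptges2, a second prostaglandin E synthase, fell by 2.16 in differentiated cells (adjusted p = 0.0235), and its change of -1.29 in cabozantinib cells had an adjusted p of 0.112, or 0.0434 without the replicate block. Ptges3, the cytosolic form that also serves as a chaperone partner, changed by -0.06 and -0.44 against undifferentiated cells. Hpgds, the haematopoietic prostaglandin D synthase, was not tested because it was well above background on fewer than 2 arrays.

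Transport and the later breakdown steps had 7 tested genes, of which 1 passed, in cabozantinib against undifferentiated cells. Slco2a1, which carries prostaglandins into cells ahead of their oxidation by Hpgd, read 3.83 and 2.74 in undifferentiated cells, 2.26 and 2.54 in differentiated cells, and -0.08 and 0.36 with cabozantinib. Both cabozantinib arrays were below the other 4. Its change was -3.15 in cabozantinib against undifferentiated cells (adjusted p = 0.00863), and -2.26 in cabozantinib against differentiated cells, with an adjusted p of 0.0555, or 0.0281 without the replicate block. Abcc4, which exports prostaglandins, changed by 1.1 in differentiated cells (adjusted p = 0.275), and Ptgr1, a reductase acting after Hpgd, by -0.63 (adjusted p = 0.617).

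None of the 4 other prostanoid receptors tested (Ptgir, Ptgfr, Tbxa2r and Ptgdr2) passed in any comparison. The prostacyclin receptor Ptgir read 0.02 and -0.16 in undifferentiated cells, 1.1 and 1.09 in differentiated cells, and -0.13 and 0.07 with cabozantinib, so that the differentiated arrays stood above the other 4. Its changes were 1.16 in differentiated cells (adjusted p = 0.198) and -1.12 with the drug (adjusted p = 0.199). The prostaglandin F receptor Ptgfr changed by -0.03 and the thromboxane receptor Tbxa2r by -1.18 in differentiated cells, and Ptgdr was not tested.

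The leukotriene branch competes for the same fatty acid, and 4 of its 6 tested genes rose in both comparisons against undifferentiated cells, where 5.26% and 4.67% of all genes rose. In differentiated cells Alox5, the lipoxygenase that starts the branch, rose by 1.98 (adjusted p = 0.0315). Its partner Alox5ap rose by 2.42 (adjusted p = 0.0153), the leukotriene C4 synthase Ltc4s by 2.13 (adjusted p = 0.0455) and the receptor Cysltr1 by 3.93 (adjusted p = 0.0016). Macrophages, which are known to use this branch and Tbxas1, had marker genes that moved with it, as given below, and the part of such cells in these increases was not tested.

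**Figure D5:**
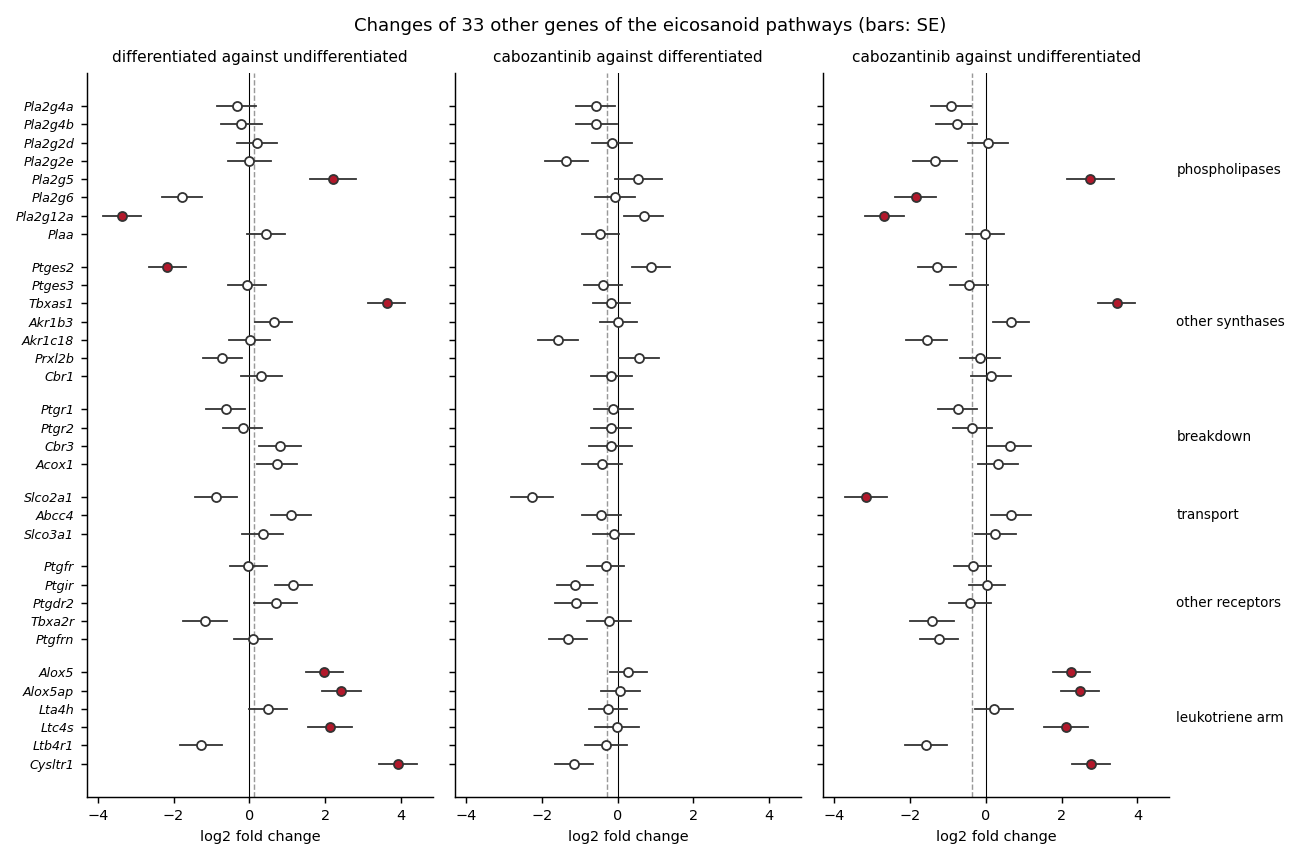
The x axis is the log2 fold change of 33 other eicosanoid genes, grouped by role, in the 3 comparisons, with bars of 1 SE, red points for an adjusted p under 0.05 and a dashed line at the median of all genes. In cabozantinib against differentiated cells no point is red, and Slco2a1 lies farthest from 0.

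A list of 20 genes that carry or answer cyclic AMP had 17 that were tested. In differentiated cells 1 rose and 2 fell, where 5.26% of all genes rose and 4.46% fell, with a median change of -0.24 against 0.11 for all genes. With cabozantinib against undifferentiated cells 1 rose and 2 fell, where 4.67% and 8.68% of all genes did, with a median of -0.47 against -0.35. With the drug against differentiated cells 0 of the 17 passed in limma, where 0.117% of all genes rose and 2.36% fell (median -0.16). Without the replicate block 3 rose and 2 fell, then 1 rose and 8 fell, then 0 rose and 1 fell, where 7.16% and 6.25%, 6.77% and 17.4%, and 0.811% and 12% of all genes did. Adcy7, an adenylyl cyclase, rose by 2.46 (adjusted p = 0.0114) in differentiated cells. Il6, a cytokine that prostaglandin E2 induces in osteoblasts, read -1.65 and -0.40 in undifferentiated cells, -4.24 and -5.19 in differentiated cells, and -5.91 and -6.07 with cabozantinib, the last 2 not well above background. It fell by 3.69 in differentiated cells (adjusted p = 0.00441) and was at least 21.9-fold lower in cabozantinib than in undifferentiated cells (adjusted p = 0.00179). The phosphodiesterase Pde4b fell by 2.27 in differentiated cells (adjusted p = 0.0472). Has2, a hyaluronan synthase, was lower in cabozantinib than in undifferentiated cells, with a change of -2.09 (adjusted p = 0.0434). Tnfsf11, the RANK ligand, had a change of -1.49 in differentiated cells that did not pass (adjusted p = 0.174). Fos and Rgs2 went the other way there, with changes of 1.47 and 1.80. They did not pass with the replicate block (adjusted p = 0.0975 and 0.0639 in limma) and did without it (0.0388 and 0.0285). Of the 13 tested targets of cyclic AMP, 3 had a positive change in differentiated cells.

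Markers of the labelled cells and of other cells moved beside these genes. All 10 osteoblast markers were tested, and in differentiated cells 5 rose (Ibsp, Bglap2, Dmp1, Phex and Mepe, by 2.20 to 6.38) and Spp1 fell, a call that was lost without the replicate block. The osteoblast regulators Runx2 and Sp7 were dim: Runx2 was well above background on 2 undifferentiated arrays, 0 differentiated arrays and 1 cabozantinib array, and Sp7 on 2, 1 and 1. In differentiated cells their changes of -1.92 and -1.85 did not pass, nor did those of Alpl (0.50) and Col1a1 (0.24). In cabozantinib against undifferentiated cells Sp7 was called lower (-2.04, adjusted p = 0.0413 in limma), a call lost without the replicate block (0.177). Of 8 tested macrophage markers 4 rose (Csf1r, Adgre1, Mrc1 and Tyrobp, by 2.84 to 5.31). Cd14 (1.30), Itgam (1.48), Ptprc (1.61) and Lyz2 (-1.28) did not pass, with Lyz2 going the other way. Cd163 was well above background on no array and was not tested. The summed signal of the macrophage list, in units of the array's 75th percentile, was 26.8 to 48.3 in undifferentiated cells. It was 278 to 371 in differentiated cells and 249 to 300 with cabozantinib. Of 7 tested adipocyte markers 4 were called higher, namely Fabp4 and Lpl (4.38 and 4.05), and Adipoq and Cfd from background. Adipoq and Cfd passed the filter only through the conditions in which they were high, so their calls are no evidence of a rise. Cidec (0.33), Plin1 (-1.52) and Cebpa (-0.92) did not pass, with Plin1 and Cebpa going the other way. The summed signals of the adipocyte list were 4.04 to 4.65, then 61.8 to 85.2, then 53.5 to 54.1. Hpgd is also known in macrophages, Ptgds in meningeal cells and Ptger3 in adipocytes, and the part of any of these cells in the members' changes was not tested.

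Of the lists with fewer calls, the endothelial one had Cdh5 higher in differentiated cells (2.18, adjusted p = 0.0229), the meningeal fibroblast one Aldh1a2 and Cldn11 (2.61 and 5.94), and the platelet one Ppbp lower (-4.93), while none of 4 mast cell and 3 smooth muscle markers tested passed. Cdh5 and Cldn11 were well above background on only 1 undifferentiated array, and Ppbp on only 1 differentiated array. The sizes of these 3 changes thus rest on signals near background. With cabozantinib against differentiated cells, Cfd (-3.67, adjusted p = 0.0477) and Cdh5 (-2.40, adjusted p = 0.0477) were the 2 of the 46 tested markers that passed, both lower, and neither passed under quantile normalization. Without the replicate block 9 markers were lower and 2 higher (Ibsp and Cpa3), where 12% and 0.811% of all genes were. Both cabozantinib arrays were below both differentiated arrays in summed signal of adipocyte, endothelial, mast cell and meningeal fibroblast markers. Single markers did not all follow these sums. In that comparison 2 of 7 tested adipocyte markers (Lpl and Cebpa) had a positive change. So did 1 of 5 endothelial (Pecam1), 1 of 4 mast cell (Cpa3) and 0 of 5 meningeal markers. The median probe moved by -0.27 there, and a loss of any of these cells was not tested. The summed meningeal signal was 13 and 9.25 in undifferentiated cells, 15.1 and 20.6 in differentiated cells, and 8.07 and 9.61 with cabozantinib. Single markers of that list moved differently. Aldh1a2 and Cldn11 were lowest in undifferentiated cells, Crabp2 was highest there, and Foxc2 and Slc22a6 passed in no comparison. The part of meningeal cells in the Ptgds signal was not tested.

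The 6-array profiles of the members were compared with those of 12791 named genes outside the lists by the root mean square difference of centred log2 values, as a description over 6 arrays that share their scaling. Nearest to Hpgd at its brighter probe were Slc1a3 (0.29) and Fcrls (0.30), and nearest to Ptgds were Pcp4 and Ctnna2 (0.29 each). Ptgs1 was nearest to Grwd1 (0.13) and Cfap69 (0.15), and Ptgis to Ccdc106 (0.08) and Unc13d (0.11). Ptger2 was nearest to Jag1 (0.11) and Tnfrsf26 (0.20), and Ptger1 to Gpr108 and Ptpdc1 (0.06 each). The brighter Ptges probe was nearest to Zbtb9 and A430005L14Rik (0.04 each), and the dimmer one to Plod3 (0.12) and Arhgdig (0.16).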

How the data were processed

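The deposited scanner files hold background-corrected Cy3 intensity per spot, which the authors' service quantified with Agilent Feature Extraction 11.0.1.1 per the file headers, together with flags for background, saturation and outliers (other values). A deposited table of log2 values normalized by the authors was used as an alternative only, since its scale and centring are not given in the sources used here: its column medians are 7.5 to 7.51 and it correlates with log2 intensity at 0.998 to 1.

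Control and outlier spots were left out, the log2 values of a probe's remaining spots were averaged, and each array was centred on its own 75th percentile. Probes with a value on all 6 arrays and well above background (at least 0.5 of a probe's spots) on 2 or more were tested (27196). limma 3.58.1 (R 4.3.3) fitted condition with the replicate number as a block, since the study's statistics name a paired test, over all 6 arrays (2 residual and 7.67 prior degrees of freedom), with Benjamini-Hochberg adjustment over all tested probes. The numbers did not pair the arrays: correlations of the replicate differences between conditions were -0.51, -0.53 and 0.26. The fit was tested on simulated data.

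Probes were named through RefSeq accessions (69.1% matched). A gene of a list was read at its brightest tested probe. Every member is named at every probe, list genes are named where they passed in a comparison or lie on the prostaglandin route, and the 2 nearest profiles are named for members well above background on all arrays (those of Ptgs2 are not reported here). The members and lists were chosen with earlier results of these data known. Alternatives were quantile normalization, the authors' values, normexp (offset 50), other filters, no block, only the arrays compared, trended robust variances, the mean of a gene's probes, the methods' t-test and leaving out each array. The number of arrays limits the precision. The labels' 30 days was used, although the study's results text names an earlier day for arrays. The figures were drawn with matplotlib.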

Additional observations from a re-analysis of the deposited data

How the results depend on the processing

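With 2 arrays a condition the counts of calls moved widely, and those of cabozantinib against differentiated cells rested most on the processing. Of 582 values of single member probes under the alternatives, 480 kept their direction and their side of the threshold, 56 kept the direction and lost the call, 25 kept it and gained one, and 21 changed sign. These values are not independent, so their number does not measure robustness. Fitting only the arrays compared gave the same values as leaving out either array of the condition not compared. The authors' values nearly repeated those of quantile normalization. Probes that were not called in the main fit and stayed so also count as kept. The direction of Ptgs2, Ptgds, Ptgis, the brighter Hpgd probe, the dimmer Ptges probe and the brighter Ptger3 probe against undifferentiated cells was the same under every alternative that gave a value. The cause of the changes below was not tested, except that fewer arrays or no filter alter what is fitted.

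Limits: the replicate numbers are not shown to pair the arrays, scan time and the drug coincide, and dim probes (Ptger3, Ptger4, the second Hpgd and Ptges probes) rest on signals near background. On differentiated array 2 the Ptgs2 signal (22.6 intensity units) was about as dim as that of the second Ptges probe (21.6).

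In differentiated against undifferentiated cells 2728 probes were called, of which 6 were members. The count was 756 with normexp, 1741 with no filter on dim probes and 1592 to 5310 when 1 array was left out, the lowest without undifferentiated array 2 and the highest without undifferentiated array 1. In cabozantinib against differentiated cells 682 probes and 0 members were called by limma (2 members at an unadjusted p under 0.05). The count of probes was 0 under quantile normalization, 0 for the authors' values, 0 with normexp, 0 with no filter, 2 with probes well above background on all 6 arrays, 1105 when probes of a gene were averaged, and 6479 with only the 4 arrays compared, where 2 members (Ptgds and Ptger3) passed. Leaving out 1 array gave 49 probes (cabozantinib array 1) to 6479 (either undifferentiated array) and 0 to 2 members.

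In cabozantinib against undifferentiated cells 3700 probes (1212 higher, 2488 lower) and 7 members were called. Quantile normalization gave 1515 probes (1071 higher, 444 lower) and 4 members, the authors' values 1519 (1085 higher, 434 lower) and 4, normexp 513 (336 higher, 177 lower) and 3, no filter 1393 (686 higher, 707 lower) and 4, and probes well above background on all 6 arrays 1551 (818 higher, 733 lower). Leaving out 1 array gave 822 probes (cabozantinib array 2) to 9958 (undifferentiated array 2) and 4 to 7 members, the 4 without cabozantinib array 1.

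Without the replicate block 3782, 3413 and 6644 probes and 7, 0 and 7 members were called in the 3 comparisons, Ptgs1 being the member gained in the first. A pairing with the undifferentiated numbers exchanged, chosen after seeing the data because of the negative correlations, gave 7358, 8278 and 12299 probes and 8, 3 and 8 members. The methods' t-test gave, paired, 0, 0 and 0 probes and 0, 0 and 0 members after Benjamini-Hochberg adjustment (1090, 2667 and 1516 probes and 2, 1 and 2 members at the study's threshold, an unadjusted p under 0.05 and a change of more than 2-fold), and unpaired 0, 0 and 2 probes and 0, 0 and 0 members (3270, 4381 and 4977 probes and 5, 1 and 5 members at that threshold).

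Sign changes were limited to probes and comparisons that did not pass in the main fit. With the mean of its probes Ptges changed by -1.16, 0.15 and -1.01 in the 3 comparisons, and with normexp the dimmer Hpgd probe by -0.25 in the first. Leaving out 1 array, changes in differentiated against undifferentiated cells ranged from -0.22 to 1.38 for the brighter Ptges probe, -1.72 to 3 for the dimmer Hpgd probe and -0.27 to 1.2 for Ptger1. In cabozantinib against differentiated cells they ranged from -0.26 to 0.04 for Ptgs1, -0.44 to 1.84 for Ptgs2, -0.87 to 0.06 for the brighter Ptges probe, -1.16 to 0.26 for Ptgis, -1.08 to 3.62 for the dimmer Hpgd probe, -0.4 to 0.64 for Ptger1 and -1.05 to 0.77 for Ptger2. In cabozantinib against undifferentiated cells they ranged from -0.62 to 0.97 for the brighter Ptges probe, -0.44 to 4.27 for the dimmer Hpgd probe and -0.14 to 1.32 for Ptger1.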
